A study of Mus musculus with 15 samples.

Results

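The 10 genes described here make glutathione, bring cystine into the cell for it, and break it down again: *Gclc*, *Gclm*, *Gss*, *Gsr*, *Slc7a11*, *Slc3a2*, *Ggt1*, *Ggct*, *Chac1* and *Chac2*. They were taken by gene symbol, all 10 were among the 35880 gene symbols listed, and all 10 were among the 14652 that passed the filter on low values. Expression was measured by mRNA sequencing in LL2/Luc2, a mouse Lewis lung carcinoma line that carries luciferase, with 3 biologic replicates in each of 5 lines. LL2 WT was the parental line and not a clone. *KEAP1* KO #1, *KEAP1* KO #2 and *KEAP1* KO #3 were clones grown from single sorted cells after nucleofection with a CRISPR plasmid against *mKeap1*, and *NRF2* KO was made the same way against *mNfe2l2* and is 1 clone, so that the deletion and any other property of that clone cannot be told apart. The *KEAP1* KO clones are also called clones #1, #2 and #3. All lines were grown in DMEM with fetal bovine serum. Values are CPM, a gene's reads scaled to a common total per sample, and they carry no read totals, so the depth of each single sample is not known from them.

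Glutathione is a tripeptide of glutamate, cysteine and glycine and the main small thiol of the cell. Glutamate-cysteine ligase, a catalytic subunit (*Gclc*) with a modifier subunit (*Gclm*), joins glutamate to cysteine, glutathione synthetase (*Gss*) adds glycine, and glutathione reductase (*Gsr*) returns the oxidized form to the reduced one. The cysteine comes largely from cystine imported by system xc-, a light chain that transports (*Slc7a11*) held at the membrane by a heavy chain (*Slc3a2*). NRF2, encoded by *Nfe2l2* and held low by KEAP1, acts on many of these genes through antioxidant response elements (ARE), and ATF4, the transcription factor of the amino acid response, acts on *Slc7a11* and *Chac1* through C/EBP-ATF response elements (CARE).

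The promoter letters are shown for the gene with the widest range across the *KEAP1* KO clones, for the turnover enzyme with the lowest mean values in those clones, and for a ligase subunit. Of the 10 members, 8 matched RefSeq promoter entries by symbol, in 11 windows since *Ggt1* has several starts. The 250 bases before each start (GRCm38.p6) were searched on both strands for the ARE core TGACNNNGC and for the CARE core TGATGNAA, and no window of a member held both, so no matches overlapped. Capitals mark a match, which reads as its reverse complement where it lies on the other strand. Of 32851 windows of this length in all genes, 3338 hold the ARE core and 1134 (3.45%) the CARE core.
*Slc7a11*, chr3:50443614-50443863, minus strand: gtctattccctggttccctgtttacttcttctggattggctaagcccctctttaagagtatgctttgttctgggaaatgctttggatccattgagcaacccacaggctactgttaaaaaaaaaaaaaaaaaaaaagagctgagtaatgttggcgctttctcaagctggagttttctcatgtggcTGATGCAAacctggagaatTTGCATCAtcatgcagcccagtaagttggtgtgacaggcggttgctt
*Chac1*, chr2:119350992-119351241, plus strand: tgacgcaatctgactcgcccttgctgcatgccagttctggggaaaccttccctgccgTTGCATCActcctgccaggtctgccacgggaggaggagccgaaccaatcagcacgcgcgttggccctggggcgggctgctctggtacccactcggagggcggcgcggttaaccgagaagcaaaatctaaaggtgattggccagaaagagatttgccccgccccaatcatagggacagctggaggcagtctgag
*Gclm*, chr3:122245307-122245556, plus strand: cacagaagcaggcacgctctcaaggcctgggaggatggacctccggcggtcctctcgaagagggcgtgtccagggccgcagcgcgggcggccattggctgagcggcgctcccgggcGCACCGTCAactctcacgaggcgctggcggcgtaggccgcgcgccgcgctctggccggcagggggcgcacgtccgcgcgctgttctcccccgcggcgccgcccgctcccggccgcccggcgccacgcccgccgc
The *Slc7a11* window held 2 CARE core matches, 66 to 59 and 47 to 40 bases before the start, which face each other on opposite strands. The *Chac1* window held 1 CARE core match, 193 to 186 bases before the start. *Gclm* had 1 ARE core match at 134 to 126 bases, *Ggct* 1 at 174 to 166 bases, and *Ggt1* had 1 match before each of 2 of its starts, at 36 to 28 and at 83 to 75 bases. No match to either motif lay in the windows of *Gss*, *Slc3a2* or *Chac2*, and *Gclc* and *Gsr* had no window to search. A match to these letters is a description and was not tested as a binding site.

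The targeted genes were checked first. *Keap1* had a mean of 23.0 ± 1.03 CPM in the parental line (SD, n = 3, as for each mean here), 11.8 ± 0.889 in clone #1, 5.53 ± 1.57 in clone #2 and 5.58 ± 1.60 in clone #3. The *Nfe2l2* transcript went from 186 ± 19.6 CPM in the parental line to 119 ± 24.0 CPM in *NRF2* KO (Log2FC -0.66), and it was below the parental line in clones #1, #2 and #3 too, at 96.4, 123 and 116 CPM (-0.94, -0.59 and -0.67), so its level does not set *NRF2* KO apart. *Nqo1*, the quinone reductase used as a readout of NRF2, had 30.3 ± 5.48 CPM in the parental line, from 276 ± 19.4 to 488 ± 17.8 CPM across the clones and 9.82 ± 1.21 CPM with NRF2 deleted. As for cell identity, the epithelial keratins *Krt8* and *Krt18* and the mesenchymal *Vim* were high in every sample, whereas *Epcam*, *Cdh1*, *Nkx2-1*, *Sftpc* and *Scgb1a1* were at or near 0. Of 3 immune markers, *Ptprc* and *Cd3e* stayed at or near 0 while *Cd68* was called higher in clones #2 and #3, so that the summed list ran from 1.99 to 4.54 CPM in LL2 WT, 4.97 to 9.29 in clone #1, 8.92 to 22.6 in clone #2, 14.0 to 36.5 in clone #3 and 1.84 to 3.22 in *NRF2* KO. The summed mesenchymal list (*Vim*, *Cdh2*, *Fn1*) ran from 3572 to 5801 CPM in LL2 WT, from 3242 to 4564 in *NRF2* KO and from 1548 to 2157 over the 3 clones. In it *Vim* was called lower in all 3 clones and *Fn1* in clones #2 and #3. *Cdh2* had means of 6.73 CPM in LL2 WT, 10.8, 0.351 and 11.7 in clones #1 to #3 and 10.4 in *NRF2* KO. It was called only in clone #2, as lower. The endothelial pair (*Pecam1*, *Cdh5*) summed to 2.42 to 3.66 CPM in LL2 WT, 2.76 to 4.84 in clone #1, 5.10 to 6.59 in clone #2, 5.24 to 6.0 in clone #3 and 4.06 to 7.46 in *NRF2* KO, with *Cdh5* called higher in clones #2 and #3. The fibroblast pair (*Col1a1*, *Pdgfra*) summed to 7.17 to 18.9 CPM in LL2 WT, 3.38 to 9.32 in clone #1, 5.31 to 7.98 in clone #2, 2.04 to 3.89 in clone #3 and 4.27 to 9.13 in *NRF2* KO, with *Col1a1* called lower in clones #2 and #3 and *Pdgfra* in clone #3. Both *Cdh5* (0.0227 CPM in LL2 WT, 0.819 and 1.25 in clones #2 and #3) and *Col1a1* (0.461, 0.0515 and 0.0298) were low. The part of these markers in the results on the members was not tested.

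Across the *KEAP1* KO clones, the genes for the first step of glutathione synthesis, for its reduction and for the transporting chain of cystine import stood well above LL2 WT, while none of the cytosolic enzymes of breakdown was called. A gene was called when its adjusted p was under 0.05 and its log2 fold change (Log2FC) over 1 in size, from limma on log2(CPM + 0.1) with Benjamini-Hochberg adjustment over all 14652 genes, a scale that understates the change of low genes. By that rule 4 of 10 members rose in *KEAP1* KO #1, where 4.55% of all genes were called higher. In *KEAP1* KO #2, 6 of 10 rose against 5.94% of all genes, and in *KEAP1* KO #3, 6 of 10 against 6.09%. No member was called lower in any *KEAP1* KO clone. The median Log2FC of the 10 members was 0.89, 1.54 and 1.48 in *KEAP1* KO #1, #2 and #3, beside medians of 0.11, 0.03 and 0.02 over all genes. *Gclc*, *Gclm*, *Gsr* and *Slc7a11* were called higher in all 3 clones, as were 2.86% of all genes, and these 12 calls held under every alternative tried. The plot of Log2FC by member shows the 4 comparisons with LL2 WT together.

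**Figure D1:**
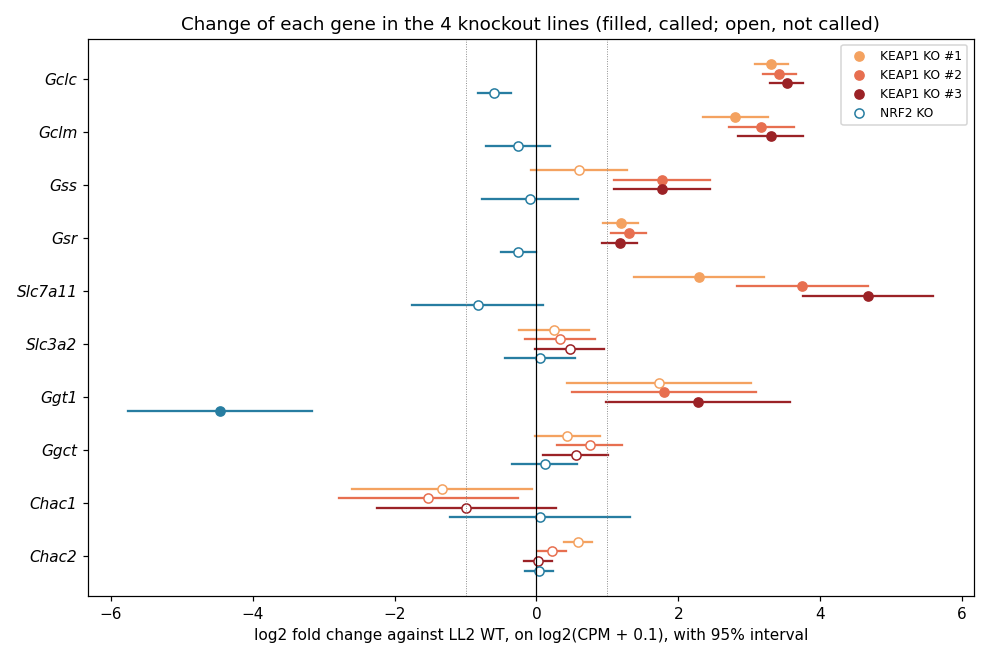
Log2FC against LL2 WT on the log2(CPM + 0.1) scale (horizontal axis) for the 10 members (rows) in *KEAP1* KO #1, #2, #3 and *NRF2* KO, with 95% intervals. Filled points are called and dotted lines mark a Log2FC of 1 in either direction. *Gclc* and *Gclm* lie close together for the 3 *KEAP1* KO clones, from 2.81 to 3.53, whereas *Slc7a11* spreads from 2.29 to 4.67 and *Ggt1* in *NRF2* KO lies at -4.46.

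*Gclc* (chromosome 9 of GRCm38, bases 77754535 to 77794485, plus strand) encodes the catalytic subunit that sets the pace of synthesis. Its 3 replicates had 37.0, 44.4 and 38.3 CPM in LL2 WT. They had 403, 400.0 and 386 CPM in clone #1, 431, 426 and 426 in clone #2, and 447, 442 and 494 in clone #3. In *NRF2* KO they had 25.4, 31.6 and 22.8 CPM. All 9 *KEAP1* KO samples were high and close to each other, and all 3 *NRF2* KO samples lay below the lowest LL2 WT value. The Log2FC against LL2 WT was 3.31 ± 0.11 (SE), 3.42 and 3.53 in clones #1, #2 and #3 (limma, adjusted p = 7.65e-10, 4.63e-10 and 3.13e-10), or 9.94-fold, 10.7-fold and 11.5-fold. *Gclc* also passed the adjusted p in *NRF2* KO (0.0246), with a Log2FC of -0.59 and a 95% interval of -0.83 to -0.36. Its fold was under the threshold and it was not called. Over the alternatives its Log2FC there ran from -0.72 to -0.49 and its adjusted p (limma) from 0.0060 to 0.579, so passing depended on the model.

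*Gclm* (chromosome 3, 122245557 to 122270732, plus strand) encodes the modifier subunit, which raises the ligase's affinity for glutamate and eases feedback by glutathione. LL2 WT replicates had 57.4, 76.4 and 42.2 CPM. The *KEAP1* KO samples ran from 366 to 423 CPM in clone #1, from 445 to 555 in clone #2 and from 495 to 623 in clone #3. *NRF2* KO had 52.3, 58.5 and 35.4 CPM, within the spread of LL2 WT. The Log2FC was 2.81 ± 0.21, 3.17 and 3.3 in the 3 clones (adjusted p = 1.68e-06, 2.87e-07 and 1.94e-07), or 6.99-fold to 9.87-fold. In *NRF2* KO it was -0.26 with an interval of -0.71 to 0.20. The log2 ratio of *Gclc* to *Gclm* CPM within a sample averaged -0.52 ± 0.34 in LL2 WT, -0.01 ± 0.08, -0.27 ± 0.18 and -0.29 ± 0.25 in the 3 clones and -0.86 ± 0.20 in *NRF2* KO. In this ratio LL2 WT overlapped clones #2 and #3 and *NRF2* KO and lay below clone #1. In *Gclm*, 6.82% of the 31-base stretches of its exons also occur in other genes, mainly *Gm17494*, which overlaps it on the opposite strand, and whether reads were assigned by strand is not given in the sources used here.

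*Gss* (chromosome 2, 155563181 to 155592810, minus strand) encodes the enzyme of the second step and separated the clones. Its parental values of 18.3, 24.0 and 9.65 CPM overlapped the 29.4, 25.9 and 19.4 CPM of clone #1. Clone #2 had 61.5, 61.2 and 45.8 CPM and clone #3 had 59.0, 63.3 and 46.3 CPM, all above LL2 WT. *NRF2* KO, with 16.8, 20.3 and 10.23 CPM, lay among the LL2 WT values. The Log2FC was 0.60 in clone #1 (interval -0.08 to 1.27, adjusted p = 0.190). It was 1.78 ± 0.31 in clone #2 and 1.78 in clone #3, with adjusted p of 0.000948 and 0.000913. *Gss* is the member with the largest share of 31-base stretches found in other genes, 12.8%, with *Acss2* and antisense genes overlapping it on the opposite strand, so part of its reads may belong to those.

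*Gsr* (chromosome 8, 33652523 to 33698163, plus strand), which regenerates reduced glutathione with NADPH, rose by a nearly even amount. LL2 WT replicates had 142, 146 and 106 CPM. The 9 *KEAP1* KO samples lay between 281 and 334 CPM, the highest being the 3 of clone #2. *NRF2* KO had 119, 112 and 97.2 CPM, overlapping LL2 WT. The Log2FC was 1.19 ± 0.11, 1.3 and 1.18 in the 3 clones (adjusted p = 1.68e-05, 3.45e-06 and 7.95e-06), or 2.26-fold to 2.47-fold, and -0.25 in *NRF2* KO (adjusted p = 0.435).

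**Figure D2:**
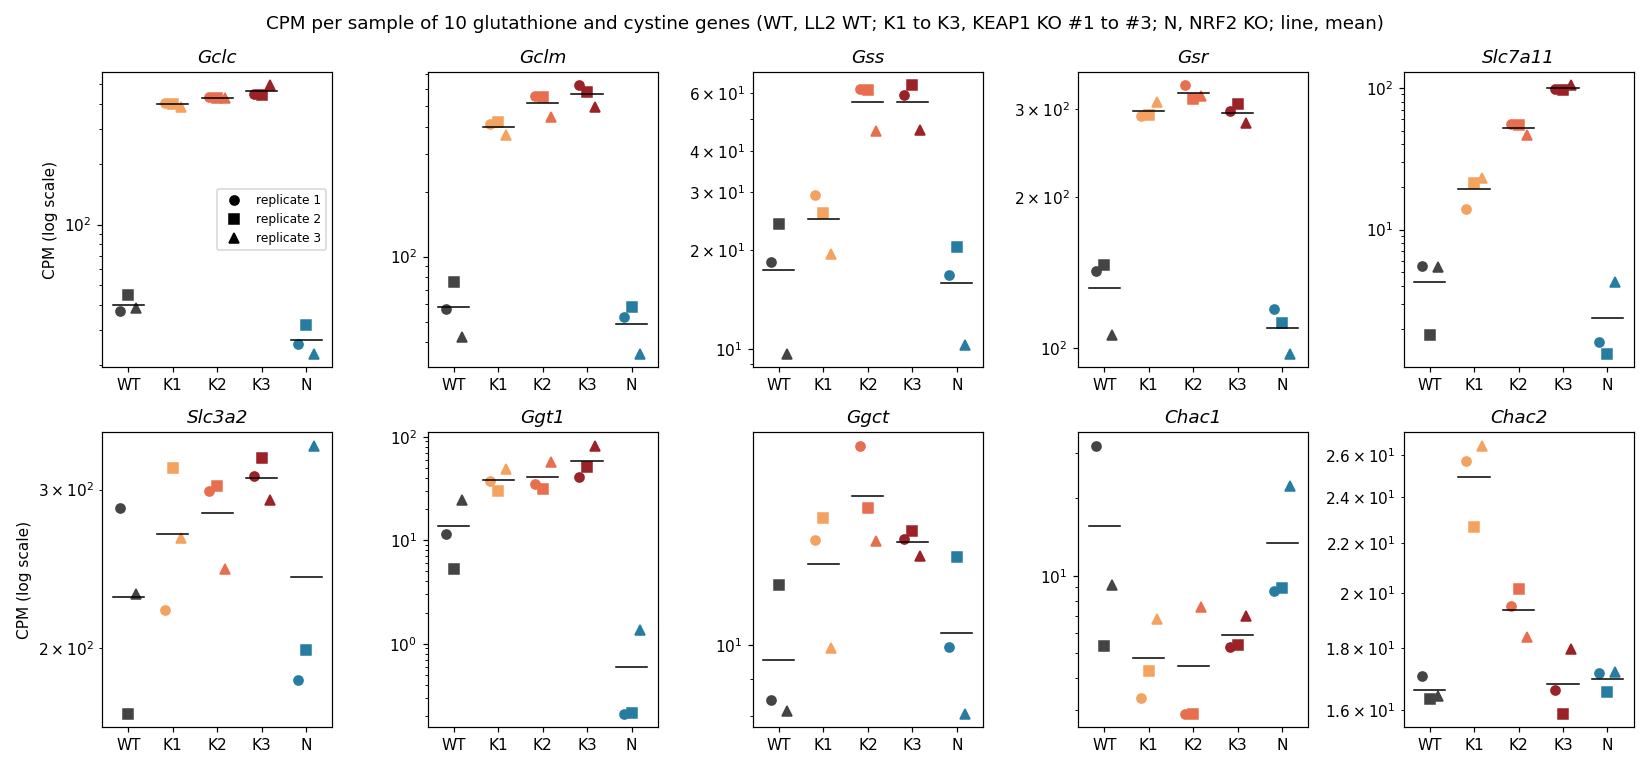
CPM of the 10 members (1 panel each, log axis) in every sample of the 5 lines, with circle, square and triangle for replicates 1, 2 and 3 and a black line for the mean. *Slc7a11* climbs from 4.26 CPM in LL2 WT to 99.6 CPM in *KEAP1* KO #3 while *Slc3a2* overlaps in most lines, and *Ggt1* falls to 0.593 CPM in *NRF2* KO.

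Among the *KEAP1* KO clones, cystine import showed the widest range. *Slc7a11* (chromosome 3, 49892526 to 50443614, minus strand), the transporting chain of system xc-, had 5.54, 1.81 and 5.41 CPM in LL2 WT. It had 14.0, 21.3 and 23.1 CPM in clone #1, 55.9, 54.9 and 46.8 in clone #2, and 97.8, 96.7 and 104 in clone #3. *NRF2* KO had 1.60, 1.33 and 4.25 CPM. The 3 clones did not overlap each other or LL2 WT, and *NRF2* KO overlapped LL2 WT. The Log2FC was 2.29 ± 0.43, 3.75 and 4.67 in clones #1, #2 and #3 (adjusted p = 0.00212, 3.12e-05 and 4.58e-06), or 4.90-fold, 13.4-fold and 25.5-fold. In *NRF2* KO it was -0.83 with an interval of -1.75 to 0.09 (adjusted p = 0.508).

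Its partner *Slc3a2* (chromosome 19, 8706882 to 8723369, minus strand), the heavy chain shared with other amino acid transporters, was abundant in every line and did not pass the test in any. LL2 WT had 286, 169 and 229 CPM, clone #1 had 220.4, 317 and 265, clone #2 had 299, 303 and 245, clone #3 had 311, 325 and 292, and *NRF2* KO 184, 199 and 336. Only the samples of *KEAP1* KO #3 all lay above LL2 WT. The Log2FC was 0.25, 0.33 and 0.47 in the 3 clones, with a widest upper bound of 0.96 in clone #3, and 0.05 in *NRF2* KO. The log2 ratio of *Slc7a11* to *Slc3a2* CPM averaged -5.88 ± 0.59 in LL2 WT, -3.80 ± 0.24, -2.42 ± 0.04 and -1.63 ± 0.14 in clones #1 to #3 and -6.79 ± 0.46 in *NRF2* KO. The clones did not overlap in this ratio, and *NRF2* KO and LL2 WT did.

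Divided by the length of each gene's longest coding transcript, which only approximates the transcripts in use, *Slc3a2* was the highest member in LL2 WT at 81.2 ± 20.8 CPM per kilobase, followed by *Gsr* at 49.2 ± 8.28. *Chac2*, *Gclc*, *Gclm*, *Chac1* and *Gss* came next, between 8.82 and 12.6 CPM per kilobase, and each overlapped the next in that order. *Ggt1* and *Ggct* followed, and *Slc7a11* was lowest at 0.461 ± 0.229, below the range of every other member. In *KEAP1* KO #3 the order was led by *Gclc* at 135 ± 8.32, then *Gsr* at 110.3, *Slc3a2* at 109.9 and *Gclm* at 101, where the last 3 overlapped, and *Slc7a11* had reached 10.8 ± 0.447 CPM per kilobase. Even there the transporting chain stayed below its heavy chain partner in every sample.

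Outside the cell, gamma-glutamyltransferase 1 (*Ggt1*; chromosome 10, 75561604 to 75586200, plus strand) begins the breakdown of exported glutathione and so returns its cysteine. It had 11.5, 5.23 and 24.2 CPM in LL2 WT, a wide spread. Clone #1 had 37.0, 29.7 and 48.6 CPM, clone #2 had 34.9, 31.5 and 57.0, and clone #3 had 40.7, 51.0 and 82.2. All 9 samples lay above LL2 WT, as they did for *Gclc*, *Gclm*, *Gsr* and *Slc7a11*, so for 5 of 10 members against 12.9% of all genes. The Log2FC was 1.72 ± 0.60 in clone #1, where it was not called (adjusted p = 0.0547). It was 1.80 and 2.28 in clones #2 and #3 (adjusted p = 0.0362 and 0.0116). With the replicate number as a block in limma the adjusted p in clone #1 became 0.00195, and without LL2 WT replicate 3 it became 0.0229 with a Log2FC of 2.27, while without LL2 WT replicate 2 it was 0.166 with a Log2FC of 1.17. The call in clone #2 was lost on leaving out LL2 WT replicate 1 (adjusted p = 0.0811) or replicate 2 (Log2FC 1.25, adjusted p = 0.124), or any 1 of its own replicates (0.0611 to 0.105).

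*NRF2* KO was the only line in which *Ggt1* was nearly silent, at 0.209, 0.216 and 1.35 CPM, all below the lowest LL2 WT sample. This was the only one of the 10 members called in *NRF2* KO, where 0.375% of all genes were called lower, and the members' median Log2FC was -0.17 beside 0.04 over all genes. The Log2FC was -4.46 ± 0.60 (interval -5.75 to -3.16, adjusted p = 0.00391), or 22.0-fold lower. It was -5.20 without *NRF2* KO replicate 3, -5.01 without LL2 WT replicate 2 and -3.05 with a pseudocount of 1 CPM. The call was lost with vooma weights, which model the spread by level (adjusted p = 0.0960), and when the model held no other lines than these (0.286).

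Inside the cell, the Chac enzymes cut glutathione to 5-oxoproline and cysteinylglycine, *Chac1* as the inducible form and *Chac2* as the constitutive one, and *Ggct* releases 5-oxoproline from other gamma-glutamyl peptides. *Chac1* (chromosome 2, 119351229 to 119354381, plus strand) had 32.1, 5.35 and 9.19 CPM in LL2 WT and 8.76, 8.97 and 22.4 in *NRF2* KO. It had 3.33, 4.24 and 6.76 CPM in clone #1, 2.90, 2.90 and 7.54 in clone #2, and 5.29, 5.38 and 6.99 in clone #3. Each clone overlapped LL2 WT, whose replicate 2 was low and replicate 1 high. The Log2FC was -1.33, -1.52 and -0.99 (adjusted p = 0.119, 0.0629 and 0.220), and the intervals ran from -2.79 to 0.28. Without LL2 WT replicate 2, *Chac1* was called lower in clone #1 (-1.89) and clone #2 (-2.08), with adjusted p of 0.0309 and 0.0157. Without LL2 WT replicate 1 the values were instead -0.61, -0.80 and -0.26 in clones #1, #2 and #3 (adjusted p = 0.434, 0.263 and 0.735), so the size depends on which parental replicates enter. All 9 *KEAP1* KO samples lay below every *NRF2* KO sample, with a Log2FC of -1.33 against *NRF2* KO (adjusted p = 0.0567). This held for 1 of 10 members, against 6.94% of all genes, so the members were not set apart in it.

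*Chac2* (chromosome 11, 30976707 to 30986350, minus strand), which *Asb3* overlaps on the opposite strand, lay close together within each line. LL2 WT had 17.1, 16.4 and 16.5 CPM, and *NRF2* KO had 17.2, 16.6 and 17.2. Clone #1 had 25.7, 22.7 and 26.5 CPM, all above the other 4 lines. The Log2FC there was 0.58 ± 0.09 (adjusted p = 0.000671), past the adjusted p but under the fold threshold, and it was 0.22 in clone #2 (adjusted p = 0.0848) and 0.02 in clone #3 (interval -0.18 to 0.21). *Ggct* (chromosome 6, 54982580 to 54992950, minus strand) had means of 9.54 ± 2.2 CPM in LL2 WT, 12.9 ± 2.65, 16.0 ± 2.49 and 13.8 ± 0.556 in the 3 clones and 10.4 ± 2.60 in *NRF2* KO. Its Log2FC was 0.43, 0.75 and 0.55, of which that in clone #2 passed the adjusted p (0.0164) at a fold under the threshold. Among the turnover genes, then, *Ggt1* was called in clones #2 and #3 and *Chac1*, *Chac2* and *Ggct* in none.

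The 3 clones share one target, and the comparisons between them ask how alike they are. *KEAP1* KO #2 was above *KEAP1* KO #1 in 2 of 10 members, where 1.79% of all genes were called higher: *Gss* by a Log2FC of 1.18 ± 0.31 (adjusted p = 0.0288) and *Slc7a11* by 1.46 ± 0.43 (adjusted p = 0.0443). *KEAP1* KO #3 was above *KEAP1* KO #1 in the same members, against 2.03% of all genes: *Gss* by 1.18 (adjusted p = 0.0273) and *Slc7a11* by 2.38 (adjusted p = 0.00326). Of these 4, only the *Slc7a11* difference between clones #3 and #1 held when each replicate was left out in turn (adjusted p at most 0.0193 over all alternatives). The *Slc7a11* difference between clones #2 and #1 was lost without any 1 of the 6 libraries compared (adjusted p = 0.0728 to 0.164). The *Gss* difference between clones #2 and #1 was lost without any 1 of 5 of them, all but *KEAP1* KO #2 replicate 3 (0.0513 to 0.112), and that between clones #3 and #1 without *KEAP1* KO #1 replicate 2 or 3 or *KEAP1* KO #3 replicate 1 or 2 (0.0628 to 0.104). *Chac2* ran the other way, lower than in *KEAP1* KO #1 by a Log2FC of -0.36 in clone #2 (adjusted p = 0.0216) and of -0.56 in clone #3 (adjusted p = 0.00174), both under the fold threshold. Between *KEAP1* KO #3 and *KEAP1* KO #2, limma called 0 of 10 members, against 0.485% of all genes in either direction, and 2 had an unadjusted p under 0.05: *Slc7a11* at 0.93 (interval 0.00 to 1.85) and *Chac2* at -0.20. *Gclc* and *Gsr* had Log2FC between clones of at most 0.22 and 0.13, and neither passed the test. *Keap1* itself was lower in clones #2 and #3 than in clone #1, by a Log2FC of -1.12 and -1.11, and its part in these differences was not tested.

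Taking the 3 *KEAP1* KO clones together against *NRF2* KO, 6 of 10 members were called higher, where 5.19% of all genes were. The Log2FC was 4.01 for *Gclc*, 3.35 for *Gclm*, 1.48 for *Gss*, 1.48 for *Gsr*, 4.40 for *Slc7a11* and 6.39 for *Ggt1*, the last an 83.8-fold difference. For these genes other than *Gss* every *KEAP1* KO sample lay above every *NRF2* KO sample, so for 5 of 10 members, against 9.57% of all genes. This comparison and those with LL2 WT share the *KEAP1* KO samples and are not independent of each other. For *Ggt1* the value was 7.13 without *NRF2* KO replicate 3 and 4.88 with a pseudocount of 1 CPM, since *Ggt1* is so low in *NRF2* KO.

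Replicate 3 stood apart from replicates 1 and 2 across the lines, a comparison chosen after seeing the data. With replicate 3 as a term beside the lines in limma, *Gss* was lower in it by a log2 difference of -0.66 ± 0.10 (adjusted p = 0.000479), *Gclm* by -0.41 (0.00140) and *Ggct* by -0.35 (0.0147), each being lowest in replicate 3 of 5 of 5 lines. *Ggt1* was higher by 1.21 ± 0.23 (adjusted p = 0.00119) and highest in replicate 3 in 5 of 5 lines. These 4 of 10 members compare with 45.7% of all genes past the adjusted p, so the members were not set apart in that count. Of all 14652 genes, 1493 were lowest in replicate 3 in all 5 lines, as *Gss*, *Gclm* and *Ggct* were. Another 3008 were highest in replicate 3 in all 5 lines, as *Ggt1* was. The labels name no batch, and what replicate 3 shares across lines is not given. With replicate 3 left out everywhere, the members called against LL2 WT numbered 5, 7 and 6 in clones #1 to #3, *Ggt1* being added in clone #1 and *Chac1* in clone #2, and 1 in *NRF2* KO. The only member whose direction in a *KEAP1* KO clone turned without it was *Chac2* in clone #3, at -0.039.

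**Figure D3:**
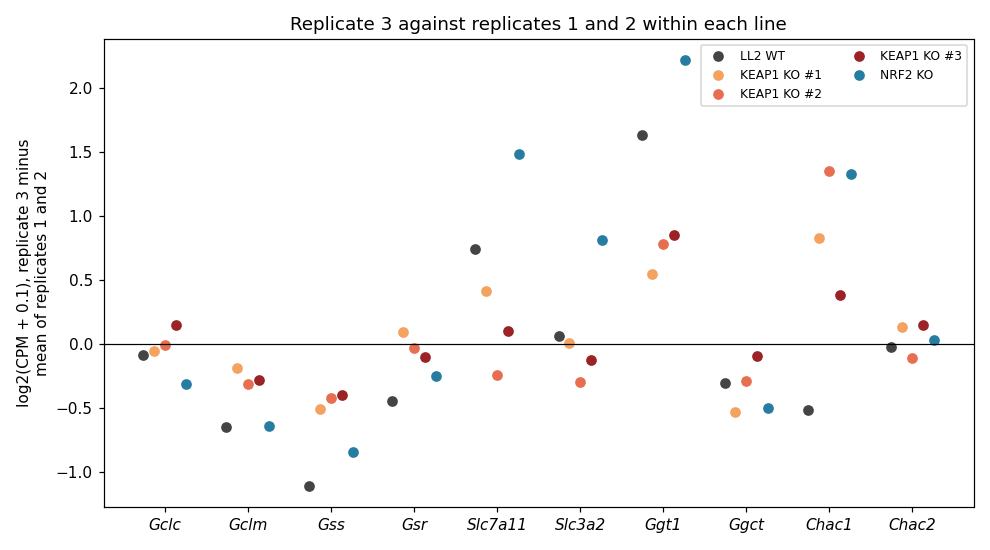
Log2 difference of replicate 3 from the mean of replicates 1 and 2 (vertical axis, log2(CPM + 0.1) scale) for the 10 members (horizontal axis), 1 point for each of the 5 lines. *Gclm*, *Gss* and *Ggct* lie below 0 and *Ggt1* above 0 in all 5 lines, whereas *Gclc* lies on both sides.

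The genes around the pathway were counted in lists with the 10 members taken out. The lists were chosen with earlier results of these data known, so their counts beside the shares of all genes are a description. Of 13 tested genes of cysteine and methionine supply, none was called in *KEAP1* KO #1. In *KEAP1* KO #2, 2 were called higher and 2 lower. The 2 higher were *Slc3a1*, a dibasic amino acid and cystine transporter subunit, at 1.12, and *Slc43a2*, a neutral amino acid transporter, at 1.60. *Slc3a1* was low, with a mean of 0.262 CPM in LL2 WT and 0.665 CPM in clone #2. In *KEAP1* KO #3, 1 was called higher and 1 lower. Of all genes, 5.94% were called higher and 7.75% lower in clone #2, and 6.09% and 7.34% in clone #3. The 2 that fell in clone #2 make up the transsulfuration route from methionine to cysteine: *Cbs*, whose mean went from 1.49 to 0.390 CPM in clone #2 (Log2FC -1.61, adjusted p = 0.0240), and *Cth*, from 14.9 to 6.56 CPM (-1.15, adjusted p = 0.0320). *Cbs* also fell in clone #3 (-1.74, adjusted p = 0.0163). The median Log2FC of the list was 0.08, 0.15 and 0.19 in the 3 clones.

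Of 11 tested genes of glutamate and glycine supply, *Glul*, which makes glutamine from glutamate, rose in all 3 clones (1.09, 1.76 and 1.54), and *Slc6a9*, a glycine transporter, rose in clones #2 and #3 (1.28 and 1.31). *Gpt2*, a mitochondrial alanine aminotransferase, fell in clones #2 and #3 (-1.63 and -1.33). *Slc1a3*, a glutamate and aspartate transporter, fell in all 3 clones (-2.30, -2.12 and -1.92) and in *NRF2* KO too (-2.12, adjusted p = 0.0267), from 1.24 CPM in LL2 WT to between 0.191 and 0.255 CPM. It is low in every line, and its change has the same sign in both kinds of knockout. In clones #1 to #3, 1, 2 and 2 of these 11 genes were called higher and 1, 2 and 2 lower. Of all genes, 4.55%, 5.94% and 6.09% were called higher and 3.99%, 7.75% and 7.34% lower. In *NRF2* KO 1 of 11 was called lower, against 0.375% of all genes. Of 8 tested genes of the gamma-glutamyl cycle and cysteinylglycine breakdown, *Anpep*, an aminopeptidase of the cell surface, rose in all 3 clones (1.00, 1.84 and 1.55), and *Cndp2*, a cytosolic dipeptidase that splits cysteinylglycine, rose in clones #1 and #3 (1.03 and 1.3) and was at 0.99 in clone #2, just under the fold threshold. *Dpep2*, a membrane dipeptidase, rose in clones #2 and #3 (2.36 and 2.61) from 0.179 CPM, and *Ggt7*, a relative of *Ggt1*, fell in them (-1.37 and -1.43). *Ggt1* and *Ggt7* thus differed in sign in both clones. In clones #1 to #3, 2, 2 and 3 of these 8 genes were called higher and 0, 1 and 1 lower, beside the same shares of all genes.

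Of 10 genes of glutathione export and mitochondrial import, 2, 3 and 6 were called higher in *KEAP1* KO #1, #2 and #3, beside 4.55%, 5.94% and 6.09% of all genes. None was called lower. *Abcc4*, an exporter of conjugates and of glutathione itself, went from a parental 20.8 ± 0.537 CPM to 72.8, 90.2 and 89.6 CPM (Log2FC 1.80, 2.11 and 2.1), and *Slc25a10*, a dicarboxylate carrier of the inner mitochondrial membrane, rose by 1.02, 1.57 and 1.44. *Abcc1*, the classic exporter of glutathione conjugates, *Abcc3* and *Abcc5* rose in clone #3 (1.08, 1.99 and 1.00). *Abcc2* rose in clones #2 and #3 (1.80 and 3.14), from 0.0535 CPM in LL2 WT. *Abcc3* was also low, with a mean of 0.468 CPM in LL2 WT and 1.91 CPM in clone #3. Some genes passed the adjusted p under the fold threshold. *Slc25a39* was higher in all 3 clones (0.43, 0.47 and 0.55), *Abcc5* in clone #2 (0.81) and *Slc25a40* in clone #3 (0.52). *Slc25a11* was lower in all 3 clones (-0.40, -0.52 and -0.43) and *Abcg2* in clone #3 (-0.90). The median Log2FC of this list was 0.33, 0.68 and 1.04. Of 11 tested glutaredoxins, glyoxalases and other glutathione-dependent enzymes, only *Esd*, which hydrolyses S-formylglutathione, was called. It rose by 1.3, 1.63 and 1.97 in the clones, so 1 of 11 beside the same shares of all genes called higher. In *NRF2* KO it fell by 1.35 on the log2 scale (limma, adjusted p = 3.88e-05), where 0.375% of all genes were called lower. Its mean went from a parental 648 ± 22.2 CPM to 256 ± 41.1 CPM there.

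*Slc7a11*, *Slc3a2* and *Chac1* belong to the targets of ATF4 and *Gclc*, *Gclm*, *Gsr* and *Slc7a11* to those of NRF2, and the rest of both lists was set beside them. Of 13 other ATF4 targets, 11, 12 and 11 had a negative Log2FC in *KEAP1* KO #1, #2 and #3. Their medians were -0.48, -0.84 and -0.42, beside 0.11, 0.03 and 0.02 over all genes. All share the LL2 WT samples, which spread widely in several, such as *Trib3* (45.2 ± 29.5 CPM) and *Vldlr* (14.7 ± 11.7 CPM). Few were called: *Asns*, asparagine synthetase, fell in clones #2 and #3 (-1.20 and -1.10) and *Atf5* in the same clones (-1.59 and -1.18). *Atf3* rose in clones #1 and #3 (2.31 and 1.90). In clones #1 to #3, 1, 0 and 1 of these 13 genes were called higher and 0, 2 and 2 lower. Of all genes, 4.55%, 5.94% and 6.09% were called higher and 3.99%, 7.75% and 7.34% lower. *Atf4* itself, at 387 CPM in the parental line, had 325, 261 and 279.9 CPM in the clones, with no call. In *NRF2* KO no ATF4 target was called and the median was 0.00. Of 13 other tested NRF2 target enzymes, 6, 6 and 7 were called higher in clones #1, #2 and #3, beside 4.55%, 5.94% and 6.09% of all genes. None was called lower. *Fth1* was lower in all 3 clones (-0.72, -0.55 and -0.50) and *Srxn1* in clone #2 (-0.74), past the adjusted p but under the fold threshold. *Ftl1* went the other way in all 3 (0.94, 0.67 and 0.81), also past the adjusted p alone. *Nqo1*, *Txnrd1*, *G6pdx*, *Taldo1*, *Me1* and *Osgin1* rose in all 3, among which *Txnrd1*, thioredoxin reductase, rose by 1.41, 1.97 and 1.95 and *G6pdx*, the first enzyme of the NADPH-making pentose phosphate route, by 1.02, 1.57 and 1.34. In *NRF2* KO, 3 of these 13 were called lower, *Nqo1* (-1.61), *Srxn1* (-1.02) and *Me1* (-1.06), against 0.375% of all genes. There *Ftl1* (-0.81) and *Fth1* (-0.46) passed the adjusted p at a fold under the threshold. *Slc7a11*, which is in both lists, rose as the called NRF2 targets did. *Chac1*, at -1.33, -1.52 and -0.99, had the sign of most ATF4 targets but was not called in any clone, as the plot of both lists shows. The part of NRF2 or ATF4 in these values was not tested.

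**Figure D4:**
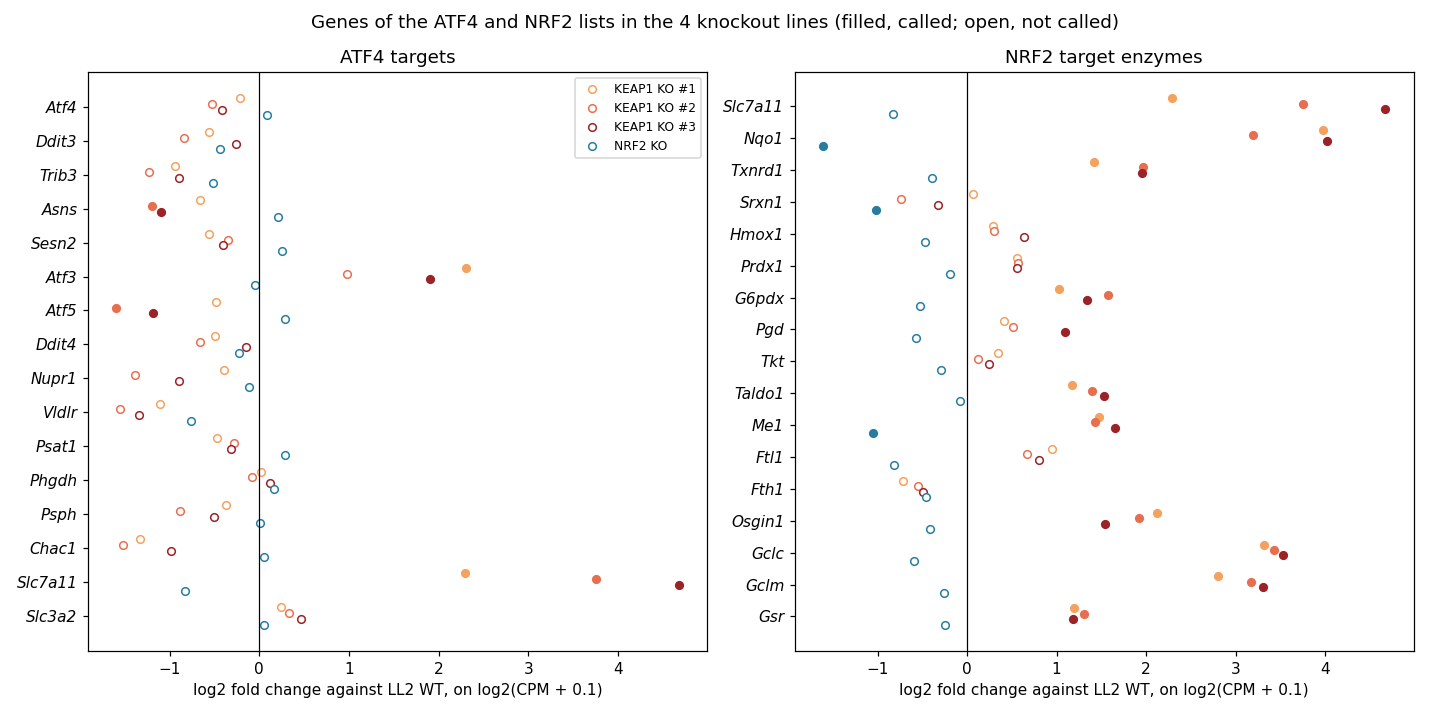
Log2FC against LL2 WT (horizontal axis, log2(CPM + 0.1) scale) for the ATF4 targets and the NRF2 target enzymes (rows), members included, in the 3 *KEAP1* KO clones and *NRF2* KO. Most ATF4 targets lie below 0 in the *KEAP1* KO clones, with medians of -0.48, -0.84 and -0.42 over the 13 that are not members, and most NRF2 target enzymes lie above 0.

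Genes were also ranked by how closely their 4 Log2FC values against LL2 WT matched those of a member, as the root mean square difference over the 4 comparisons, among 11675 genes with a mean of at least 1 CPM. For *Gclc* the closest were *Dnmt3l* (0.31), *Mest* (0.33) and *Gclm* (0.35), so its own partner subunit was among them. For *Gclm* they were *Frmd4b* (0.22), *Gipc2* (0.26) and *Gm47803* (0.26). For *Gsr* the closest were *Gm7730* (0.10) and *Psmd5* (0.11), a proteasome assembly chaperone. The gene closest to *Slc7a11* was *C3*, complement component C3, at 0.32 (2.90, 3.67, 4.51 and -0.91 beside 2.29, 3.75, 4.67 and -0.83 for *Slc7a11*), and the second, *Serpinb9c*, lay at 0.53. The members differ in the size of their Log2FC, so these distances do not rank how widely a pattern is shared. For *Chac1* the closest was *Glt8d2* (0.05). All 4 comparisons share the LL2 WT samples, so these likenesses are descriptions.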

How the data were processed

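RNA of 15 samples, 5 lines with 3 biologic replicates each, had been sequenced from mRNA libraries. The deposited values are CPM per gene, made by the authors with kallisto (bcl2fastq 1.9.0 before it, per the submitters' processing notes). The notes name the build GRCm39 and the study's methods GRCm38.p6, which cannot both hold, so coordinates here come from GENCODE vM21 (GRCm38) by gene symbol and promoters from RefSeq (GRCm38.p6). The promoter matches, the CPM per kilobase and the shared 31-base stretches rest on these annotations, and the CPM and the tests do not. CPM are normalized and not whole reads, so no count test was run. Each sample summed to between 999412 and 999525 CPM, and an entry with no gene name (0.0214% to 0.0491%) was left out.

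Genes with a summed CPM of at least 3 over 15 samples were kept (14652 of 35880). limma 3.58.1 in R 4.3.3 was fitted to log2(CPM + 0.1) over all 5 lines with a trended eBayes prior, and a gene was called at an adjusted p under 0.05 and a Log2FC over 1 in size. Where nothing says that replicates came from separate cultures, the p-values measure only the spread between samples. Promoters were searched in Python 3.11.15 and plots drawn with matplotlib 3.10.9. The fit was tested on simulated data with independent noise and with changes planted only in genes of higher level. The simulation held no deviation shared by replicate number, so it cannot speak to that or to low genes.

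Named genes are the 10 members and 3 checks (*Keap1*, *Nfe2l2*, *Nqo1*). Listed genes were named when called in all 3 clones, in *NRF2* KO or in opposite directions in 2 clones. The 5 genes closest in pattern to each of 5 members were found, and only the nearest of them are named. Other listed genes named were chosen after their values were seen. The members and lists were chosen with earlier results of these data known. Alternatives were other pseudocounts, filters, scalings, eBayes priors and weights, a model with only the lines compared, a replicate block, a replicate 3 term, and leaving out libraries. Samples with the same replicate number deviated together (median r = 0.28 over 30 pairs, 22 of them over 0.1) more than those with different numbers (median r = -0.19 over 60 pairs, 11 over 0.1). In no comparison with LL2 WT did all pairs exceed 0.1, those of replicate 1 being under it, so the numbers were not taken to pair the lines.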

Additional observations from a re-analysis of the deposited data

Results flagged for a closer look

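Between *KEAP1* KO clones, 4 differences among the members were called by a test of the difference itself (limma, adjusted p under 0.05 and a Log2FC over 1 in size, 3 replicates a clone). *Chac2* passed the adjusted p in the same clone pairs at a fold under the threshold. *Slc7a11* was higher in *KEAP1* KO #2 than in *KEAP1* KO #1 by a Log2FC of 1.46 (adjusted p = 0.0443), higher in 3 of 3 samples, and higher in *KEAP1* KO #3 than in *KEAP1* KO #1 by 2.38 (adjusted p = 0.00326), again in 3 of 3 samples. *Gss* was higher in *KEAP1* KO #2 than in *KEAP1* KO #1 by 1.18 (adjusted p = 0.0288) and in *KEAP1* KO #3 by 1.18 (adjusted p = 0.0273), in 3 of 3 samples each. The groups held 3 samples, too few to look for a single sample far from the others.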

How the results depend on the processing

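Over the 53 member values followed, 989 of 1049 alternative values kept their direction and their side of the threshold, 15 turned sign, 29 lost a call and 16 gained one. The number of members called stayed at 4 to 5 in *KEAP1* KO #1, 5 to 7 in *KEAP1* KO #2, 6 in *KEAP1* KO #3, and 6 to 7 for the clones together against *NRF2* KO. In *NRF2* KO it was 0 with vooma weights, 0 with only the lines compared and 2 at any fold change. Between clones #2 and #1 it was 1 with a pseudocount of 0.01 CPM, 0 with no filter, 1 without the eBayes trend and 0 to 2 with libraries left out, and between clones #3 and #1 it was 1 to 2 with libraries left out. All values that turned sign were of members whose adjusted p was at least 0.886 as reported. In *NRF2* KO, *Chac2* went to -0.0156 with rescaled CPM and -0.0115 with quantile normalization, and *Slc3a2* to -0.0040 with quantile normalization. With libraries left out, the *NRF2* KO values ran from -0.46 to 0.19 for *Gss*, -0.22 to 0.23 for *Slc3a2*, -0.068 to 0.30 for *Ggct* and -0.56 to 0.78 for *Chac1*, and *Chac2* in *KEAP1* KO #3 ran from -0.039 to 0.057. The cause of these changes was not tested beyond the libraries named. The replicate numbers pair every sample pair at over 0.1 only for *KEAP1* KO #2 with #3 and *KEAP1* KO #3 with *NRF2* KO. With the replicate block the called members numbered 5, 7, 6 and 1 against LL2 WT (the additions being *Ggt1* in *KEAP1* KO #1, adjusted p = 0.00195, and *Chac1* in *KEAP1* KO #2, adjusted p = 0.0297), and 2, 2 and 0 between clones. Rescaled CPM moved the all-gene median of clone #1 from 0.11 to 0.01. The study's methods give read depth only as an average and the values hold no totals per sample, which leaves the counting error of low genes such as *Ggt1* in *NRF2* KO without a measure per sample.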
